A study of Mus musculus with 10 samples.

Results

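The serum amyloid, haptoglobin and orosomucoid genes of the liver were examined as a set of 10 named genes: *Saa1*, *Saa2*, *Saa4*, *Hp*, *Hpx*, *Orm1*, *Orm2*, *Lcn2*, *Apcs* and *Crp*. They were chosen by symbol and found in the count table through their Ensembl identifiers. Of the 10 genes, 9 were among the 12147 genes tested, and *Lcn2* was not analysed here. The livers came from WT C57BL/6 mice, all of them germ-free. Of these, 5 mice received extracellular vesicles from control SPF mice by mouth (GF+MEV, labelled EV) and 5 received the PBS carrier alone (GF+PBS). No host in either group had a gut microbiota of its own, and whole liver was used, so hepatocytes were measured together with the other cells of the organ. The age and sex of the germ-free mice, and whether vesicles from several donors were pooled, are not given in the sources used here.

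These genes encode secreted plasma proteins of the acute phase response. In an inflamed or injured animal, cytokines of the IL-6 and IL-1 families act on hepatocytes, and transcription factors such as STAT3, NF-kB and the C/EBP proteins raise the transcription of acute phase genes, with glucocorticoids acting as a partner signal. SAA1 and SAA2 are the inducible serum amyloid A proteins carried on high density lipoprotein, and SAA4 is the constitutive form. Haptoglobin binds free haemoglobin, hemopexin binds free heme, the orosomucoids carry lipophilic ligands, and the pentraxins serum amyloid P (*Apcs*) and CRP bind microbial and damaged-cell surfaces. In mice, serum amyloid P is the more inducible of the 2 pentraxins.

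The comparison asks whether oral vesicles changed liver expression of these genes in mice without a microbiota. Each library came from a separate mouse and held 15746119 to 20523649 gene counts (median 16937758). Levels are given as CPM, counts scaled to library size by the TMM method, and all 10 hepatocyte markers were detected in every library, with a summed level of 105319 to 125354 CPM in GF+MEV livers and 109184 to 125487 CPM in GF+PBS livers. Over all tested genes, vesicle-treated livers had 500 higher and 428 lower at an adjusted p under 0.05 (edgeR quasi-likelihood test with Benjamini-Hochberg adjustment), so 53.9% of the calls were higher, against 41.2% under upper-quartile scaling. GF+MEV replicate 2 stood apart in its counts from the other GF+MEV livers (chi-square per gene 133 to 175, against 8.14 to 21.3 for the other pairs). By root mean square difference in log2 CPM its pairs overlapped with the others (0.358 to 0.379, against 0.324 to 0.370). GF+PBS replicates 1 and 3 (6.33) and replicates 4 and 5 (7.17) were the most alike of their group, and calls lost without a library or with these pairs summed are given beside the genes concerned.

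The stretches of DNA just upstream of 4 of the genes are printed to show how the members differ in sequence. They are the 250 bases before the RefSeq transcription start in GRCm38.p6, and 8 of the 10 genes had an entry. *Hp* and *Orm1* had none, so their upstream DNA was not searched. The inducible pair *Saa1* (chr7:46742981-46743230, minus strand) and *Saa2* (chr7:46751583-46751832, plus strand) is shown because the 2 genes lie head to head, 8809 bases apart. *Saa4* (chr7:46732604-46732853, minus strand) is the constitutive neighbour, and *Orm2* (chr4:63362199-63362448, plus strand) is the orosomucoid with an entry. Capitals mark matches to the motifs named below, and positions are counted back from the start, with -1 the last base printed.
Saa1: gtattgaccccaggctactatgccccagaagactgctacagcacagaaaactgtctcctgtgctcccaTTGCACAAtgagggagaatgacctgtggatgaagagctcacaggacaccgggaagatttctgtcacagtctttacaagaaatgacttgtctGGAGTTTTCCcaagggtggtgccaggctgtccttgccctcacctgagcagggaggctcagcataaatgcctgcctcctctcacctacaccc
Saa2: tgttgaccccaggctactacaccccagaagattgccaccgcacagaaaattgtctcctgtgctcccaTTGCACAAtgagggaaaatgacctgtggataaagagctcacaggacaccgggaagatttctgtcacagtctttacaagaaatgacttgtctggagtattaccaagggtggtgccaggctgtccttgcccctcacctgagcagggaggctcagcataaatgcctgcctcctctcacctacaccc
Saa4: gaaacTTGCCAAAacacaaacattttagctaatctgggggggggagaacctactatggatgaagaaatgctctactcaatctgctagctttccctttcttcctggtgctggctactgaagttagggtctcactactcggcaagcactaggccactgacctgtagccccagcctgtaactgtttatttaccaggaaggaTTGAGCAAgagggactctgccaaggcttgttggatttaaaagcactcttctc
Orm2: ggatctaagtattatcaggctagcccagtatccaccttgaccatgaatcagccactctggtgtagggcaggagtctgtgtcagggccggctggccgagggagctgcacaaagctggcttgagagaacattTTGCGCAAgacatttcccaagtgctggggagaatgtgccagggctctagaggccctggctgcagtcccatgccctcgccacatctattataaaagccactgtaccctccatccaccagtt
A C/EBP motif, spelled TTGCNNAA and searched on both strands, was in 9.56% of 32851 windows of this length. It occurred in *Saa1* as TTGCACAA at -182 to -175, in *Saa2* with the same letters at -183 to -176, in *Saa4* as TTGCCAAA at -245 to -238 and TTGAGCAA at -52 to -45, and in *Orm2* as TTGCGCAA at -120 to -113. The *Hpx* window, not printed, held it as TTGCTGAA at -200 to -193. The NF-kB consensus, in 9.55% of windows on either strand, matched *Saa1* as GGAGTTTTCC at -91 to -82 and had no match in the *Saa2* window. The windows of *Saa1* and *Saa2* were otherwise close, with 95.6% identity over 249 aligned bases. The members searched were *Saa1*, *Saa2*, *Saa4*, *Orm2*, *Hpx*, *Apcs* and *Crp*. A STAT3 motif, spelled TTCNNNGAA, was in 7.02% of windows, and among the members searched only the *Apcs* window held it. The glucocorticoid receptor element, in 0.387% of windows, matched no window of the members searched. None of the matches overlapped another motif, and a match describes letters only.

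*Hp* was the only member to pass the test. Haptoglobin mRNA rose by 23.8% in GF+MEV livers, while hemopexin, the partner scavenger of heme, was 9.26% above GF+PBS in the mean and did not pass. *Hp* (ENSMUSG00000031722, chr8:109575128-109579172, minus strand) was at 3334, 3677, 3316, 3543 and 3047 CPM in GF+MEV replicates 1 to 5 and at 2883, 2541, 2685, 2968 and 2590 CPM in GF+PBS replicates 1 to 5. The groups did not overlap, although GF+MEV replicate 5 and GF+PBS replicate 4 were close. Mean levels were 3383 ± 240.8 CPM with vesicles and 2733 ± 185.4 CPM without (SD, n = 5 each). Its log2 fold change was 0.31 (SE 0.064), with an adjusted p of 0.0115 by edgeR. The fold was 1.24 (95% interval 1.12 to 1.37), and an exact permutation test (two-sided) gave p = 0.00794, the smallest value that 5 mice against 5 allow. That makes 1 of 9 members called higher (11.1%), against 4.12% of all tested genes, and 1 of 9 higher without overlap between groups, against 3.94%. No member was called lower (background 3.52%) or lay lower without overlap (background 3.45%). The adjusted p of *Hp* stayed between 0.000273 and 0.0358 over 19 alternative settings, each library left out in turn included. In whole liver, more RNA per hepatocyte and a larger share of hepatocytes cannot be told apart. Of the 10 hepatocyte markers, 6 had a log2 fold change above 0, and the 10 ran from -0.16 to 0.45. Of the 10, 3 were called higher (30%, against 4.12% of all tested genes), and none was called lower. The 3 were *Hnf4a*, *Cps1* and *Ass1*, with log2 fold changes of 0.45, 0.38 and 0.36. *Cps1* and *Ass1* were picked for naming after their values were seen. The sum of the 10 markers is mostly *Alb*, at a log2 fold change of -0.034.

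*Hpx* (ENSMUSG00000030895, chr7:105591613-105600137, minus strand) was at 3141, 3076, 3076, 3272 and 2979 CPM in GF+MEV replicates 1 to 5 and at 2989, 2823, 2708, 2963 and 2744 CPM in GF+PBS replicates 1 to 5. Of the GF+MEV livers, 4 of 5 were above all GF+PBS livers, and replicate 5 fell inside the GF+PBS range. The log2 fold change was 0.13 (SE 0.036), with an adjusted p of 0.191 by edgeR. The 95% interval of the fold ran from 1.03 to 1.16, computed from the spread of log2 CPM of this gene alone, whereas edgeR also draws on the spread of other genes. An exact two-sided permutation test gave p = 0.0159, unadjusted. The ratio of *Hp* to *Hpx*, examined after the values were seen and given without a test, was 1.02 to 1.20 in GF+MEV livers and 0.900 to 1.002 in GF+PBS livers, without overlap.

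**Figure D1:**
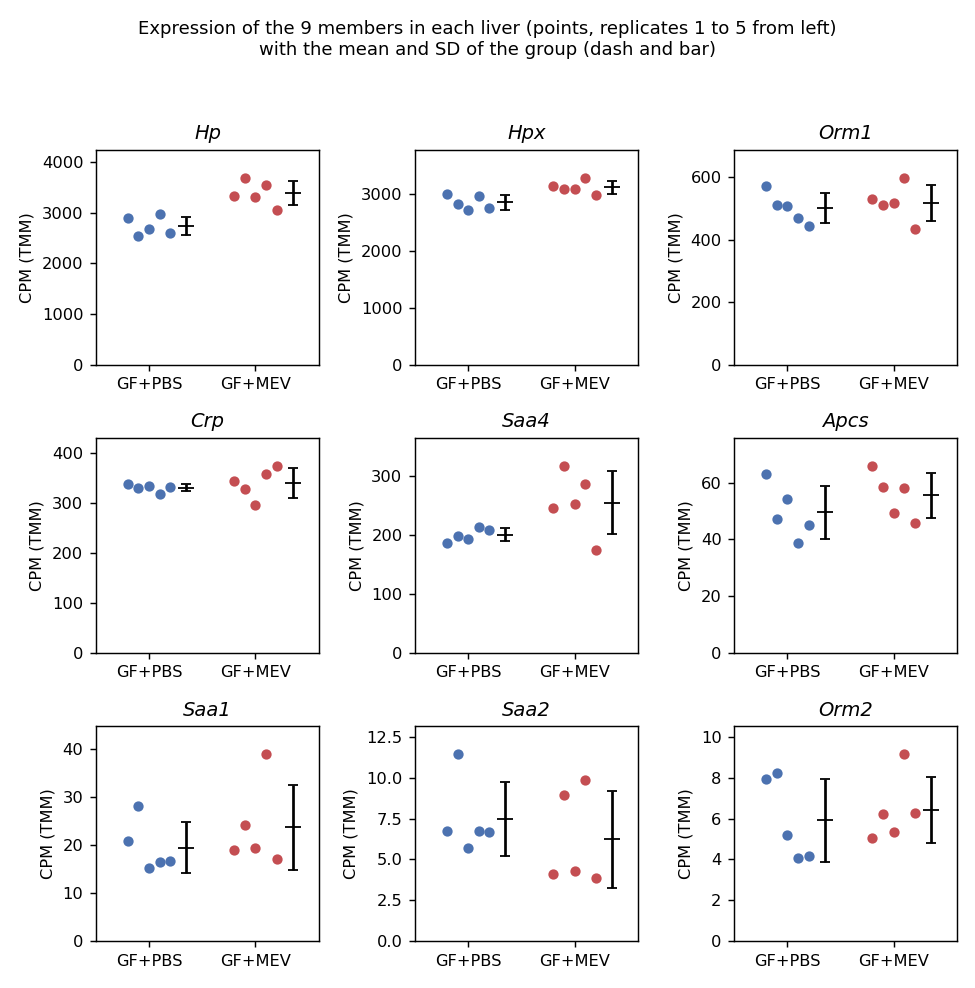
CPM (TMM) of the 9 analysed members in each liver, 1 panel per gene with its own axis from 0, GF+PBS in blue and GF+MEV in red, points for replicates 1 to 5 from left and a dash with a bar for the mean and SD. The *Hp* points of the groups are apart (2541 to 2968 against 3047 to 3677 CPM), and those of the other 8 genes overlap.

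The constitutive *Saa4* had the largest log2 fold change of all members in the edgeR fit and did not pass the test. *Saa4* (ENSMUSG00000040017, chr7:46727998-46732603, minus strand) was at 246.1, 316.3, 251.97, 286.1 and 173.9 CPM in GF+MEV replicates 1 to 5 and at 186.8, 197.9, 193.1, 214.0 and 208.0 CPM in GF+PBS replicates 1 to 5. The first 4 GF+MEV livers were above all GF+PBS livers, and GF+MEV replicate 5 was the lowest of the 10. The coefficient of variation was 20.95% in GF+MEV livers and 5.51% in GF+PBS livers. The log2 fold change was 0.35 (SE 0.15), with a 95% interval of the fold from 1.002 to 1.62, an adjusted p of 0.0934 by edgeR and an exact two-sided permutation p of 0.0635. Without GF+MEV replicate 5 the log2 fold change was 0.46 with an adjusted p of 0.00253 by edgeR, and DESeq2's Wald test on all 10 livers gave an adjusted p of 0.0479.

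Neither gene of the inducible pair passed the test. *Saa1* (ENSMUSG00000074115, chr7:46740497-46742980, minus strand) was at 18.9, 24.01, 19.4, 38.8 and 17.03 CPM in GF+MEV replicates 1 to 5 and at 20.8, 28.1, 15.1, 16.4 and 16.6 CPM in GF+PBS replicates 1 to 5. GF+MEV replicate 4 and GF+PBS replicate 2 were the highest of their groups, and the remaining 8 livers lay between 15.1 and 24.01 CPM. The log2 fold change was 0.28 (SE 0.27), with a 95% interval of the fold from 0.797 to 1.86 and an adjusted p of 0.500 by edgeR. Without GF+MEV replicate 4 the log2 fold change was 0.029. *Saa2* (ENSMUSG00000057465, chr7:46751790-46754313, plus strand) was at 4.09, 8.97, 4.30, 9.88 and 3.86 CPM in GF+MEV replicates 1 to 5 and at 6.72, 11.4, 5.71, 6.72 and 6.67 CPM in GF+PBS replicates 1 to 5. The GF+MEV livers fell into a high pair (replicates 2 and 4) and a low trio, with the GF+PBS livers apart from replicate 2 between them. *Saa2* was the only member below GF+PBS in the mean, with a log2 fold change of -0.27 (SE 0.34), a 95% interval of the fold from 0.484 to 1.43 and an adjusted p of 0.635 by edgeR. It was -0.061 without GF+PBS replicate 2 and -0.51 without GF+MEV replicate 4. Exact two-sided permutation tests gave p = 0.389 for *Saa1* and p = 0.325 for *Saa2*.

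*Saa1* and *Saa2* transcripts share 94.4% of 606 aligned bases, although no stretch of 100 bases is identical in both. Read length is not given in the sources used here, so how well reads were divided between them is not known. Summed over both genes, livers given vesicles had 29.8 ± 11.5 CPM and livers given PBS 26.9 ± 7.48 CPM (SD, n = 5 each), a log2 ratio of means of 0.15. The ratio of *Saa1* to *Saa2*, given without a test, was 2.68 to 4.63 in GF+MEV livers and 2.44 to 3.10 in GF+PBS livers, and it was above the whole GF+PBS range in every GF+MEV liver except replicate 2. *Saa3*, the related gene made mainly by macrophages and fat cells, was at 2.38, 4.90, 4.35, 3.76 and 1.99 CPM in GF+MEV replicates 1 to 5 and at 2.17, 3.98, 2.20, 3.03 and 2.82 CPM in GF+PBS replicates 1 to 5. These ranges overlapped, with a log2 fold change of 0.29 (SE 0.29) and an adjusted p of 0.549 by edgeR.

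Neither orosomucoid gene passed the test. *Orm1* (ENSMUSG00000039196, chr4:63344560-63348163, plus strand) was at 529.8, 509.6, 518.0, 596.2 and 434.8 CPM in GF+MEV replicates 1 to 5 and at 571.1, 509.7, 508.5, 470.2 and 443.2 CPM in GF+PBS replicates 1 to 5. The highest and the lowest of the 10 livers, replicates 4 and 5, were both in the GF+MEV group. The log2 fold change was 0.049 (SE 0.096), with an adjusted p of 0.805 by edgeR, and the 95% interval of the fold ran from 0.888 to 1.20. *Orm2* (ENSMUSG00000061540, chr4:63362449-63365878, plus strand) was at 5.06, 6.21, 5.36, 9.15 and 6.30 CPM in GF+MEV replicates 1 to 5 and at 7.94, 8.24, 5.18, 4.04 and 4.14 CPM in GF+PBS replicates 1 to 5. The GF+PBS livers fell into a high pair (replicates 1 and 2) and a low trio, and the GF+MEV values other than replicate 4 lay between 5.06 and 6.30 CPM. Its log2 fold change was 0.12 (SE 0.26), with an adjusted p of 0.819 by edgeR and a 95% interval of the fold from 0.714 to 1.65. Both values turned below 0 without GF+MEV replicate 4, to -0.0072 for *Orm1* and -0.048 for *Orm2*, and rose to at most 0.11 and 0.27 without another library. Exact two-sided permutation tests gave p = 0.611 for *Orm1* and p = 0.587 for *Orm2*. The 2 transcripts share 91.0% of 775 aligned bases and 6.95% of their windows of 100 bases, so reads between them may also be divided wrongly. Their sum was 524.1 ± 58.5 CPM with vesicles and 506.5 ± 49.98 CPM without (SD, n = 5 each).

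The pentraxins did not pass the test either. *Apcs* (ENSMUSG00000026542, chr1:172893961-172895041, minus strand) was at 65.8, 58.5, 49.3, 58.1 and 45.8 CPM in GF+MEV replicates 1 to 5 and at 62.9, 47.0, 54.2, 38.6 and 44.9 CPM in GF+PBS replicates 1 to 5. The ranges overlapped over most of their length. Its log2 fold change was 0.16 (SE 0.15), with an adjusted p of 0.494 by edgeR, a 95% interval of the fold from 0.879 to 1.43 and an exact two-sided permutation p of 0.294. *Crp* (ENSMUSG00000037942, chr1:172698055-172833031, plus strand) was at 344.1, 328.1, 296.6, 359.0 and 373.8 CPM in GF+MEV replicates 1 to 5 and at 337.9, 331.0, 334.3, 318.3 and 332.6 CPM in GF+PBS replicates 1 to 5. The GF+PBS livers were close together (coefficient of variation 2.25%), and the GF+MEV livers lay on both sides of them (8.75%). The log2 fold change of *Crp* was 0.041 (SE 0.059), with an adjusted p of 0.774 by edgeR, a 95% interval of the fold from 0.935 to 1.13 and an exact two-sided permutation p of 0.563. It turned to -0.0013 under upper-quartile scaling. For *Crp* the interval leaves out any rise above 1.13-fold, whereas for *Saa1*, *Saa2*, *Saa4*, *Orm2* and *Apcs* the intervals allow changes of over 1.4-fold.

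**Figure D2:**
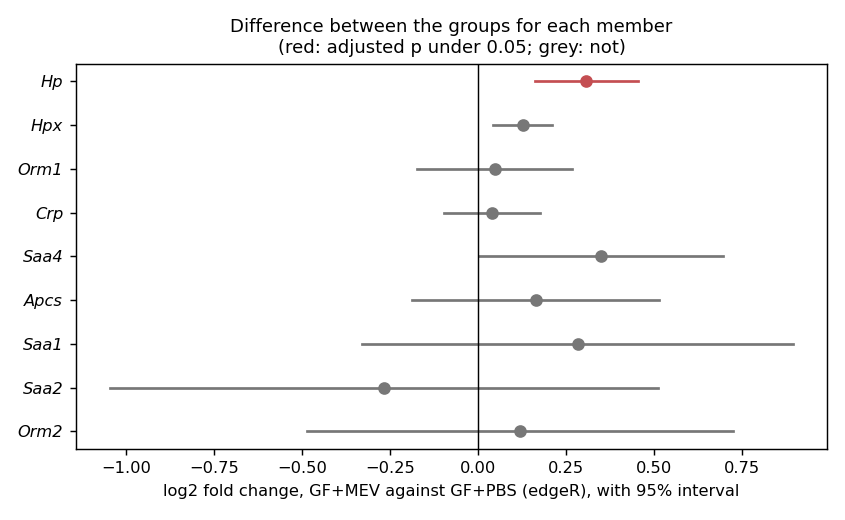
Log2 fold change of each member, GF+MEV against GF+PBS, from edgeR (points) with a 95% interval from the SE of log2 CPM (bars) on a linear axis. The *Hp* interval, in red for an adjusted p of 0.0115, lies above 0 from 0.16 to 0.45, those of *Hpx* and *Saa4* also lie above 0 without passing the adjusted test, and those of the other 6 members include 0.

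The members were mostly above 0 in direction and small in size. Of the 9 members, 8 had a log2 fold change above 0 (88.9%), against 49% of all tested genes, but without GF+MEV replicate 4 it was 6 of 9, and under upper-quartile scaling 7 of 9. In edgeR 3 had an unadjusted p under 0.05 (*Hp*, *Saa4* and *Hpx*, 33.3%), against 21.2%. The median log2 fold change over the 9 members was 0.13, beside -0.0037 over all tested genes, whose 5th to 95th percentiles ran from -0.45 to 0.40. Every member lay inside that range. Several members are neighbours on a chromosome, and genes are not independent replicates.

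The members differed in how widely they varied between livers. The ratio of the highest to the lowest of the 10 livers was 2.97 for *Saa2*, 2.57 for *Saa1* and 2.26 for *Orm2*, the members with the fewest counts, and between 1.21 (*Hpx*) and 1.82 (*Saa4*) for the remaining 6. Counting error alone gives a coefficient of variation of at most 12.9% for *Saa2*, 12.04% for *Orm2* and 6.27% for *Saa1*. By liver, GF+MEV replicate 4 was the highest of 10 for 4 members (*Saa1*, *Hpx*, *Orm1* and *Orm2*), and GF+MEV replicate 5 was the lowest for 3 (*Saa2*, *Saa4* and *Orm1*). GF+MEV replicate 4 also had the highest sum of the 12 Kupffer cell markers, 551 CPM against 301 to 374 CPM in the other GF+MEV livers and 342 to 483 CPM in GF+PBS livers, and the part of these cells in the members' values was not tested.

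**Figure D3:**
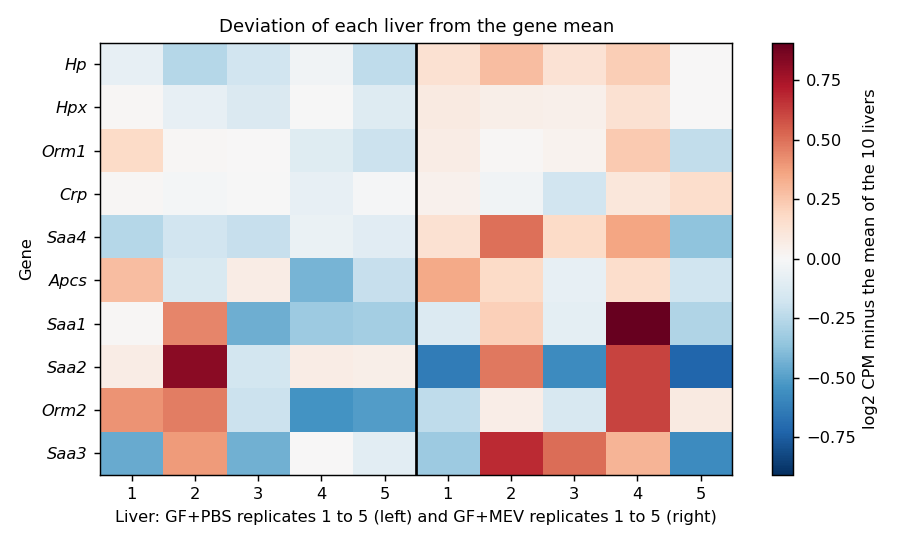
Deviation of each liver from the gene's mean over 10 livers, in log2 CPM (colour scale, red above and blue below the mean), for the 9 members and *Saa3* in rows and the livers in columns, GF+PBS left of the line and GF+MEV right of it. *Hp* is pale red to white in GF+MEV columns and pale blue to white in GF+PBS columns. *Saa1*, *Saa2* and *Orm2* are a stronger red in GF+MEV replicate 4 and GF+PBS replicate 2, in both groups.

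Per length, the scavengers were the highest of the members in GF+PBS livers. In CPM per kb of the principal transcript, the mean levels were 2032 ± 137.8 for *Hp* and 1898 ± 84.6 for *Hpx* (SD, n = 5), and these neighbours overlapped. *Orm1* followed at 645.9 ± 62.4, *Crp* at 195.2 ± 4.40 and *Saa4* at 95.5 ± 5.26 CPM per kb (SD, n = 5), each clear of its neighbours. *Apcs* at 51.0 ± 9.58 and *Saa1* at 31.9 ± 8.71 CPM per kb overlapped, as did *Saa2* at 11.4 ± 3.48 and *Orm2* at 7.62 ± 2.64 CPM per kb (SD, n = 5). With the length of all exons of a gene in place of the principal transcript, *Hp* and *Hpx* changed places, as did *Saa2* and *Orm2*. By that length *Crp* and *Saa4* (96.1 and 95.5 CPM per kb) and *Saa1* and *Orm2* (7.83 and 7.62 CPM per kb) also lay level, so only part of the order holds under both lengths. By principal transcript *Orm2* and *Saa2* were the lowest of the 9 members, and with vesicles they were at 8.28 ± 2.09 and 9.54 ± 4.52 CPM per kb (SD, n = 5).

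Other positive acute phase genes gave a divided picture. Of 22 tested genes of a list of 24, 5 rose and 1 fell, so 27.3% were called against 7.64% of all tested genes in either direction, and the median log2 fold change was 0.12. This list and the related lists below were chosen with earlier results of these livers known, so their percentages are not independent of these data. *Cd14*, the co-receptor for lipopolysaccharide, rose from 2.19 ± 0.69 CPM to 7.70 ± 2.99 CPM (SD, n = 5), a log2 fold change of 1.81 (SE 0.28) and an adjusted p of 0.000364 by edgeR. *Serpina3n*, a protease inhibitor of the antichymotrypsin family, rose from 305.6 ± 21.4 CPM to 416.6 ± 27.5 CPM (SD, n = 5), a log2 fold change of 0.45 (SE 0.061) and an adjusted p of 0.000471 by edgeR. Both stayed called with each library left out in turn, and in both no GF+MEV liver overlapped a GF+PBS liver. Smaller rises were called for *Serpina3m* (log2 fold change 0.21, adjusted p 0.0289), *Lbp*, the lipopolysaccharide binding protein (0.28, 0.0452), and *Itih3*, an inter-alpha-inhibitor heavy chain (0.26, 0.0465), all by edgeR. *Hamp*, which encodes the iron hormone hepcidin, fell, with a log2 fold change of -0.44 and an adjusted p of 0.0365 by edgeR. These 4 calls lay near the threshold, and each was lost when any of several libraries was left out. *Itih3* lost its call without any library except GF+MEV replicate 2 (adjusted p up to 0.110), *Lbp* without any except GF+MEV replicates 2 and 5 (up to 0.115), *Hamp* without any except GF+MEV replicate 4 and GF+PBS replicate 5 (up to 0.0900), and *Serpina3m* without GF+MEV replicates 4 or 5 or GF+PBS replicates 1, 2 or 3 (up to 0.0805). With the alike GF+PBS pairs summed, all 4 missed the threshold, with adjusted p-values by edgeR of 0.0819 for *Serpina3m*, 0.105 for *Lbp*, 0.136 for *Itih3* and 0.0970 for *Hamp*. Upper-quartile scaling and the replicate block also ended the calls of *Serpina3m* (0.0827 and 0.0715), *Lbp* (0.0868 and 0.0677) and *Itih3* (0.0967 and 0.0625). *Serpina3m* and *Serpina3n* belong to a family of close copies, so their counts may be uncertain too, but their transcripts were not aligned here.

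The fibrinogen chains, the most abundant clotting proteins of the acute phase, did not pass, and *Orm3* was not analysed here. Fibrinogen log2 fold changes were 0.11 for *Fga* (adjusted p 0.432), 0.022 for *Fgb* (0.890) and 0.011 for *Fgg* (0.957) by edgeR. Genes that fall in an acute phase response showed no common direction either. Of 15 tested, 1 rose and 1 fell (13.3%, against 7.64% of all tested genes), with a median log2 fold change of 0.015. *Serpina6*, which encodes the corticosteroid binding globulin of plasma, fell from 346.1 ± 79.3 CPM to 205.7 ± 23.98 CPM (SD, n = 5), a log2 fold change of -0.75 (SE 0.17) and an adjusted p of 0.00326 by edgeR. *Igf1*, the growth factor IGF-1, rose (log2 fold change 0.31, adjusted p 0.0285 by edgeR), but lost its call without GF+MEV replicates 1 or 5 or GF+PBS replicates 3, 4 or 5 (adjusted p up to 0.0727), under upper-quartile scaling (0.0526) and with the alike GF+PBS pairs summed (0.118). Albumin and transthyretin did not pass, with log2 fold changes of -0.034 for *Alb* (adjusted p 0.835) and -0.16 for *Ttr* (adjusted p 0.247).

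**Figure D4:**
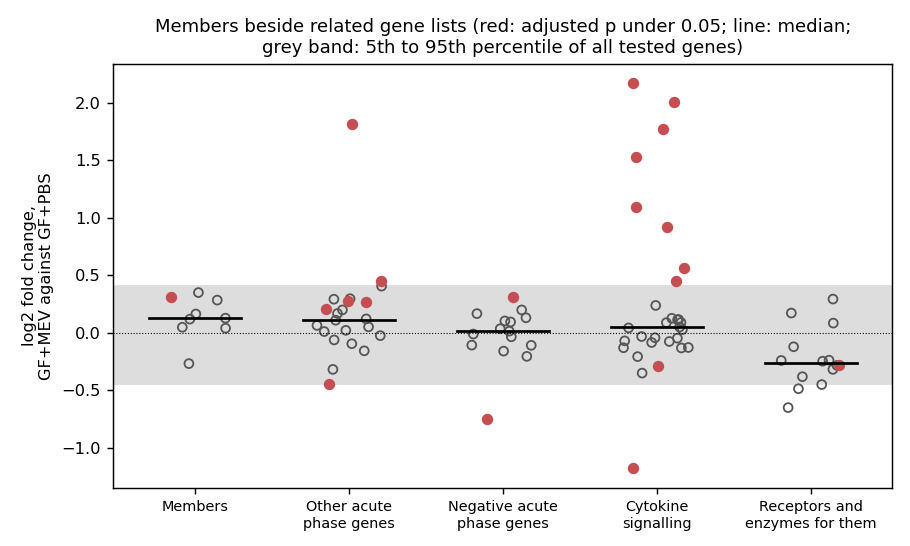
Log2 fold change, GF+MEV against GF+PBS, of each tested gene of the member set and 4 related lists (circles, filled red for an adjusted p under 0.05), with the median of each list as a line and the 5th to 95th percentile of all tested genes (-0.45 to 0.40) as a grey band. Members stay inside the band, while *Cd14* (1.81), *Cebpd* (2.17) and *Socs3* (-1.18) of the other lists lie outside it.

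Several receptors and transcription factors known to act upstream of the members were called. Of 30 tested signalling genes of a list of 36, 8 rose and 2 fell (33.3%, against 7.64% of all tested genes), with a median log2 fold change of 0.047. This list too was chosen with earlier results of these livers known. *Cebpd*, the acute phase C/EBP factor, was at 28.2, 28.5, 21.5, 23.4 and 23.6 CPM in GF+MEV replicates 1 to 5 and at 3.998, 5.77, 4.76, 7.38 and 5.76 CPM in GF+PBS replicates 1 to 5. The groups were far apart, with a log2 fold change of 2.17 (SE 0.17) and an adjusted p of 1.77e-07 by edgeR. *Il6ra*, the ligand-binding chain of the IL-6 receptor, was at 69.8, 102.7, 82.7, 62.1 and 77.6 CPM in GF+MEV replicates 1 to 5 and at 31.2, 45.3, 33.4, 34.5 and 40.4 CPM in GF+PBS replicates 1 to 5. Its groups were also apart, with a log2 fold change of 1.10 (SE 0.16) and an adjusted p of 7.76e-05 by edgeR. *Socs3*, the feedback inhibitor that STAT3 induces, was at 10.3, 10.9, 11.7, 10.05 and 8.55 CPM in GF+MEV replicates 1 to 5 and at 26.0, 13.6, 26.3, 26.4 and 24.4 CPM in GF+PBS replicates 1 to 5. It fell in every GF+MEV liver below every GF+PBS liver, with GF+PBS replicate 2 nearest, a log2 fold change of -1.18 (SE 0.20) and an adjusted p of 0.000275 by edgeR. *Cebpb*, the partner of *Cebpd*, rose by 2.004 on the log2 scale, *Tnfrsf1b*, a TNF receptor, by 1.77, *Il1r1*, the IL-1 receptor, by 1.53, *Nfkbia*, the inhibitor of NF-kB, by 0.92, *Tnfaip3*, another brake on NF-kB, by 0.56 and *Hnf4a*, the hepatocyte factor, by 0.45, with adjusted p-values of 4.55e-10 to 0.0275 by edgeR. *Cebpa*, the C/EBP factor of resting hepatocytes, fell by 0.29 on the log2 scale (adjusted p 0.0138 by edgeR, 0.0717 with the alike GF+PBS pairs summed).

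The signal-transducing chain *Il6st* (log2 fold change 0.043, adjusted p 0.877) and the glucocorticoid receptor *Nr3c1* (0.051, 0.784) did not pass in edgeR. *Stat3* was higher in every GF+MEV liver than in any GF+PBS liver (log2 fold change 0.24), with an adjusted p of 0.0532 by edgeR and 0.0208 by DESeq2. Without GF+MEV replicate 5 its adjusted p was 0.0407 by edgeR, and *Tnfaip3* lost its call without GF+MEV replicates 1 or 3 or GF+PBS replicates 3 or 4 (adjusted p up to 0.0754), with the replicate block (0.0725) and with the alike GF+PBS pairs summed (0.0554). The kit named in the labels was read as not marking strand, and the strand setting of the counting is not given in the sources used here. Exons of *Cebpb*, *Cebpd*, *Cebpa*, *Il6ra*, *Stat3* and *Fgg* overlap exons on the opposite strand by 51 to 562 bases (*Tmem189*, *Spidr*, *Gm45091*, *Gm42809*, *Stat5a* and *Gm30097*). Reads in these stretches may not be told apart, and how they were counted is not known. The members have no such overlap. *Il6*, *Il1b*, *Tnf* and *Osm*, the ligands, were not analysed here.

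Receptors and enzymes that handle the member proteins were also examined. Of 14 tested genes of a list of 16, none rose and 1 fell (7.14%, near the 7.64% of all tested genes), with a median log2 fold change of -0.26. *Blvrb*, a biliverdin reductase downstream of heme breakdown, fell by 0.28 on the log2 scale (adjusted p 0.0460 by edgeR), and lost its call without GF+MEV replicates 1, 3, 4 or 5 or GF+PBS replicates 1, 3 or 4 (adjusted p up to 0.119), under median-of-ratios scaling (0.0505), with the replicate block (0.0967) and with the alike GF+PBS pairs summed (0.145). *Cd163*, the receptor for haptoglobin with haemoglobin (log2 fold change 0.29, adjusted p 0.222), *Lrp1*, the receptor for hemopexin with heme (0.17, 0.447), and *Hmox1*, heme oxygenase (-0.24, 0.411), did not pass in edgeR.

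Glucocorticoid target genes and markers of other liver cells are given beside these results, and their part in them was not tested. All 13 tested genes of a glucocorticoid list were called higher, against 4.12% of all tested genes, though that list was chosen with earlier results of these livers known. Among them the log2 fold changes were 1.32 for *Fkbp5*, 1.93 for *Tsc22d3* and 2.10 for *Tat*. None of the 12 Kupffer cell markers was called by edgeR, against 7.64% of all tested genes (*Clec4f* log2 fold change -0.15, adjusted p 0.416). GF+MEV replicate 4 had 21.2 CPM of *Marco*, 26.0 CPM of *Adgre1* and 149.8 CPM of *Cd5l*, against 1.28 to 2.17, 8.14 to 11.5 and 62.3 to 91.1 CPM in the other GF+MEV livers. *Marco*, *Adgre1*, *Cd5l*, *Cps1*, *Ass1*, *Cebpe*, *Sox9* and *Spp1* were picked after their values were seen. The 7 B cell markers summed to 12.3 to 21.7 CPM and 22.6 to 28.7 CPM. Of these, 3 were called lower (42.9%, against 3.52% of all tested genes), among them *Cd79a* (log2 fold change -0.87, adjusted p 0.00715 by edgeR). Of the neutrophil markers, 2 of 14 were tested, summing to 11.6 to 15.6 CPM and 14.8 to 18.1 CPM, and *Cebpe* was called lower (log2 fold change -0.45, adjusted p 0.00925 by edgeR). Of the cholangiocyte markers 3 of 7 were tested, and *Krt19* was higher (log2 fold change 3.87, adjusted p 0.000631 by edgeR). Its level was 5.67 to 16.8 CPM in GF+MEV replicates 1 to 4, but 0.96 CPM in GF+MEV replicate 5, near the 0.30 to 0.78 CPM of GF+PBS livers. *Sox9* (log2 fold change -0.98, adjusted p 0.103) and *Spp1* (0.52, 0.133) did not pass in edgeR. Of the adipocyte markers 2 of 7 were tested, at 27.0 to 36.5 CPM and 28.9 to 59.8 CPM. No tested marker was at 0 in any library, and *S100a8*, *S100a9*, *Ly6g* and *Adipoq* were not analysed here.

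The genes whose pattern over the 10 livers was nearest to that of *Saa2*, the member of widest range (1.54 on the log2 scale), were *Csf3r*, *Cenpc1*, *Ear2*, *AB124611* and *A530020G20Rik*. Their root mean square distance from *Saa2* in centred log2 CPM was 0.23 to 0.26, against a median of 0.53 over the other 12146 tested genes. They were chosen as the smallest distances, so lying below the median is no result. Their mean levels were low, at 1.4 to 3.1 CPM. *Saa1*, the closest member, was at 0.37 and ranked 104, *Saa3* was at 0.44 and *Orm2* at 0.46.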

How the data were processed

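Liver RNA of 10 germ-free mice was sequenced, 1 library per mouse. Reads were mapped by the authors with STAR 2.7.3a (two-pass mode, GRCm38), after bcl2fastq 2.17 (submitters' processing notes), counted them per gene with HTSeq, whose version is not given in the sources used here, and removed genes of low count. The values deposited by the authors are raw counts, not normalized. The table also held 5 columns that match no described sample, which were not used.

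The test took genes whose counts in the 10 libraries sum to 20 or more (12147 of 12148, of which the lowest summed to 26 and 43 to between 20 and 100) with edgeR 4.0.16 in R 4.3.3: TMM scaling, quasi-likelihood fit on group alone, Benjamini-Hochberg adjustment over all genes, threshold 0.05. SEs are those of log2 CPM (prior count 2), and the 95% interval used them with 8 residual degrees of freedom. Exact two-sided permutation tests of mean log2 CPM ran over 252 labelings. Precision is limited by 5 mice per group and, for low genes, by counting error. Symbols came from the GENCODE annotation of GRCm38 (5 identifiers had none), promoters from RefSeq.

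Members and lists were chosen with earlier results of these data known. Genes are named if they are members, if they passed the threshold in the acute phase, signalling or partner lists, if they belong to a short list of defining genes, or if they are the 5 nearest in pattern to the member of widest range. Alternatives were DESeq2 1.42.0, limma-voom (limma 3.58.1), 2 other scalings, 2 other filters, a replicate block, each library left out, alike GF+PBS libraries summed, and 3 genes abundant in 1 library left out. On simulated data for this comparison, with 200 of 12146 genes changed by 1 on the log2 scale, edgeR recovered 187 with 11 false calls, and called 0 genes when nothing was changed. The members' log2 fold changes ran from -0.27 to 0.35. Recovery of changes that small was not simulated, so the 187 do not describe it.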

Additional observations from a re-analysis of the deposited data

Results flagged for a closer look

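Within each group of 5 livers, the listed genes reported above were screened for a liver far from the other 4 (Dixon's criterion). Of 62 groups, 4 were picked out, where chance gives about 1 in 20, or 3.1. GF+PBS replicate 2 had 11.4 CPM of *Saa2*, where the rest of its group had 5.71 to 6.72 CPM. *Socs3* was at 13.6 CPM in the same liver, against 24.4 to 26.4 CPM. GF+MEV replicate 4 had 13.0 CPM of *Cd14*, where the rest of its group had 5.93 to 6.83 CPM, and 714.0 CPM of *Hamp*, where the rest had 441.4 to 519.5 CPM.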

How the results depend on the processing

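Among the members, the count called was 1 under every alternative except DESeq2, which called 2 (*Hp* and *Saa4*), and leaving out each library, which gave 1 to 2 (*Saa4* added without GF+MEV replicate 5). Of the other acute phase genes 6 were called, but 3 under upper-quartile scaling, 2 with alike GF+PBS libraries summed and 2 to 5 with a library left out. *Lrg1*, named after its values were seen, missed the threshold in the main fit (adjusted p 0.0531 by edgeR). It was called under DESeq2, limma-voom and the replicate block, and without GF+MEV replicate 5 or GF+PBS replicate 2. Of the negative acute phase genes 2 were called, but 1 under upper-quartile scaling, 1 with those libraries summed and 1 to 2 with a library left out. The signalling genes called numbered 8 to 11 under all alternatives, against 10. Of the partner genes 1 was called, but 2 under DESeq2 and under upper-quartile scaling, 0 under median-of-ratios scaling, with the replicate block and with the libraries summed, and 0 to 2 with a library left out. The causes of these changes were not tested. The replicate block otherwise gave 1 member, 4 other acute phase genes, 2 negative and 9 signalling genes. Same-numbered libraries deviated with correlations of -0.15 to 0.14, so they share only a number. Over all genes, 928 were called, 1201 by DESeq2, 792 with the block and 561 with alike libraries summed. Depth limits *Saa2*, *Orm2* and *Saa3*, with counting errors of up to 12.9%, 12.04% and 17.96%.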
